A study of Mus musculus with 24 samples.

Results

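Kallikrein-related peptidases are secreted serine proteases, and 8 of their genes, Klk5, Klk6, Klk7, Klk8, Klk10, Klk11, Klk13 and Klk14, were followed here together with Spink5, the gene of the kallikrein inhibitor LEKTI. The 9 genes were taken by name from the probe names of an expression array, which gave 13 probes. With a probe kept when its signal was above background (detection p under 0.01) in at least 2 arrays, 8 of the 9 genes were tested, among 14217 genes in all. Klk14 was left untested because its single probe was above background in 1 of the 23 arrays that carry a detection p-value, P20 control sample 3.

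The arrays measured RNA of mouse epidermis peeled off the dermis after an overnight trypsin digest, with 1 Illumina BeadChip array for each of 24 samples on 8 glass chips, lettered A to H here. All mice were of mixed B6-129Sv background and carried at least 1 floxed allele of Mad2, whose gene Mad2l1 encodes a protein of the spindle checkpoint. Mutants (Mad2f/f; K14Cre+) expressed Cre recombinase from the promoter of keratin 14, which is active in basal keratinocytes, and controls at P3 to P20 had the floxed alleles without Cre. The title of the series names aneuploidy, and the comparison asks how mutant epidermis differed from control epidermis at each age.

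At postnatal day 3 (P3) there were 2 mutant and 4 control samples, at P6 2 and 2, at P13 2 and 2, and at P20 2 and 3. The mutants carried the note of no phenotype at P3 and of a nude phenotype from P6. The adult groups differed in genotype. Adult sample 2 was Mad2f/f; K14Cre+, samples 1 and 3 were Mad2f/f; p53f/+; K14Cre+ with 1 floxed allele of p53 in addition, and the only adult control, sample 4, was Mad2f/+; K14-Cre+ and so carried Cre. One P3 sample had a mutant genotype label and a control type label. It entered no comparison.

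Values are log2 intensities after background correction and quantile normalization, and differences are mutants minus controls on that scale, from a limma fit to all arrays with p-values adjusted over all 14217 genes and called at 0.05. Nothing in the labels says that samples of a group came from separate litters, so the p-values measure the spread between these samples only. Intensities of different genes come from different probes and are not set against each other. Per array, 23.3% to 40.1% of probes were detected above background, and the upper quartile of signal exceeded background by 21.2 to 182 intensity units. The targeted gene Mad2l1 was lower in mutants at each age, with every mutant array below every control array of its age. At P6 the difference was -2.26. At the other ages the mutants were not well above background, and controls were at least 2.63-fold higher at P3, 8.36-fold at P13, 1.84-fold at P20 and 6.65-fold in adults, against the lowest signal above background. In the array with conflicting labels Mad2l1 stood at 7.89, inside the P3 control range of 7.09 to 7.99.

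In skin, kallikreins are made by the uppermost living keratinocytes and released into the stratum corneum, where they cut the corneodesmosomes that hold dead cells together and so allow shedding. They act in a cascade. KLK5 can activate itself and other kallikreins, among them KLK7, KLK8 and KLK14, and LEKTI, the product of Spink5, binds KLK5, KLK7 and KLK14 and blocks them. Loss of SPINK5 causes Netherton syndrome in people, a disease with excess kallikrein activity and a defective skin barrier.

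The 8 kallikrein genes lie in 1 stretch of mouse chromosome 7, in the order Klk14, Klk13, Klk11, Klk10, Klk8, Klk7, Klk6 and Klk5 along the annotation, with Klk12 between Klk13 and Klk11 and Klk9 between Klk10 and Klk8. All 8 had at least 1 promoter window in the RefSeq set of build GRCm38.p6, 10 windows in all. The 250 bases before the start are shown for Klk6 and Klk13, the members called higher in mutants at P6, P13, P20 and in adults, for Klk8, called at P6, P13 and in adults, and for Klk7, which was called at no age. All 4 are on the plus strand, at chr7:43824294-43824543 for Klk6 (1 of its 2 windows), chr7:43712317-43712566 for Klk13, chr7:43797327-43797576 for Klk8 and chr7:43811044-43811293 for Klk7. Capitals mark the letters GGGNGNGG on either strand, a pattern of the kind bound by KLF proteins such as KLF4.
Klk6: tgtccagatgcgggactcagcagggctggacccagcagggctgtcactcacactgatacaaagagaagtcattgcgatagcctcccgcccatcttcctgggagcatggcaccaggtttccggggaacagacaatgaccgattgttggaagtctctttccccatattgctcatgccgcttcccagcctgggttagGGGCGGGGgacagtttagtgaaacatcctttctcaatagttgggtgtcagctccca
Klk13: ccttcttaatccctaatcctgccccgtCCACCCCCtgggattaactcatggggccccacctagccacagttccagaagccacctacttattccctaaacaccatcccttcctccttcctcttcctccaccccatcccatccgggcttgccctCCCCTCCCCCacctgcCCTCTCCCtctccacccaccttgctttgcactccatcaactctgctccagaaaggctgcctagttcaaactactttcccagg
Klk8: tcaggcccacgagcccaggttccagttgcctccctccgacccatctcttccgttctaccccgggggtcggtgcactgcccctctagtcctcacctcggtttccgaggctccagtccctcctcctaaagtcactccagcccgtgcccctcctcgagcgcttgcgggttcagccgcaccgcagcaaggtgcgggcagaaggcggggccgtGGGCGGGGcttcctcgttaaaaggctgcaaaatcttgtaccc
Klk7: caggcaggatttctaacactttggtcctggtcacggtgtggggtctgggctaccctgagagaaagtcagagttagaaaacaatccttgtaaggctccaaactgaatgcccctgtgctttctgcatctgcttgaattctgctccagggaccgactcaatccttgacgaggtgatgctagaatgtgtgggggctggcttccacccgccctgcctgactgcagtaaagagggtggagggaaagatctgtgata

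The GC-rich pattern occurred in 7 of the 10 windows of 300 bases, which reach from 250 bases before to 50 after the start, and in 49.5% of all 32851 promoter windows of that length. Klk6 and Klk8 held the same 8 letters, GGGCGGGG, at position -56 and -42 from the start. Klk13 had 4 matches, 2 of them overlapping, and Klk10 had 5, while the Klk7 window held none. Of the other patterns searched on both strands, TTGCNNAA (C/EBP) was in 2 windows, both of Klk11, against 10.8% of all windows. The AP-1 pattern TGANTCA was in 0 of the 10 windows, against 7.81% of all. The Grainyhead-like pattern AACNNGTT was likewise in 0, against 4.2%. The letters TATAAA of the core promoter box of that name were also in 0, against 13.6%. A match shows only that these letters are present, and the absence of one only that they are not in this window.

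At P3, mutant and control epidermis differed in 0 of the 8 tested members by limma at an adjusted p of 0.05, with 0 also at an unadjusted p of 0.05, where 1.93% of all genes were called. Klk5, the trypsin-like kallikrein at the head of the cascade, stood at 14.05 and 13.82 in the mutants and at 13.76, 13.77, 13.71 and 13.44 in the controls. Klk6, another trypsin-like protease, gave 11.41 and 11.31 in mutants and 11.37, 11.42, 10.81 and 10.73 in controls. Those ranges overlapped for Klk6, and the Klk5 mutants lay just above the highest control. The Klk11 mutants, at 11.39 and 11.59, also lay above their highest control, at 11.24. Klk7, Klk8, Klk10 and Spink5 overlapped. The share of all genes without overlap was not counted. The widest gap of the age was in Klk13, at 9.96 and 9.77 against 9.27, 9.12, 9.24 and 9.42, a difference of 0.60 ± 0.38 (SE; 95% interval -0.20 to 1.41). The hair shaft and inner root sheath keratins already differed at this age, with 5 of 7 lower in mutants.

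At P6, 6 of the 8 members were higher in mutants and none was lower, where 9.51% of all genes were called higher and 22.8% in either direction. Over the 8 members the differences ran from 1.52 to 5.81. Klk6 was at 13.82 and 12.78 in mutants against 7.66 and 7.31 in controls, a difference of 5.81 ± 0.51 or 56.3-fold (limma, adjusted p = 9.30e-07). Klk5 was at 12.93 and 13.44 against 10.54 and 9.48, a difference of 3.17 ± 0.32 or 9.03-fold (limma, adjusted p = 3.12e-06). In both genes the lowest mutant array lay more than 2 log2 units above the highest control.

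Klk11, a kallikrein of stratified epithelia, stood at 11.15 and 11.10 in P6 mutants and at 8.27 and 7.22 in controls, a 10.4-fold difference (3.38 ± 0.27). Klk13 was at 10.57 and 9.49 against 6.17 and 6.51, 12.9-fold (3.69 ± 0.44). Klk8, known as neuropsin and a trypsin-like protease of the epidermal cascade, was at 13.80 and 13.92 against 11.44 and 10.68, 6.95-fold (2.80 ± 0.45). All 3 were called (limma, adjusted p from 4.40e-07 to 3.00e-04). Klk10 was at 11.33 and 11.44 against 9.02 and 8.87, a difference of 2.44 ± 0.77 with an adjusted p of 0.030 by limma. This last call was lost when any 1 of the 4 P6 arrays was left out, with adjusted p-values from 0.106 to 0.136, and with no filter on low signal (0.0696).

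Klk7, the chymotrypsin-like kallikrein that cuts corneodesmosin, was at 14.57 and 14.28 in P6 mutants and 13.07 and 12.74 in controls. Its difference of 1.52 ± 0.78 did not pass (limma, adjusted p = 0.186). Spink5 gave 10.26 and 10.23 in mutants and 7.87 and 7.29 in controls, a difference of 2.67 ± 1.20 that did not pass either (limma, adjusted p = 0.128). Their standard errors come from a spread shared over all ages, and the P20 arrays of both genes stood far apart, as described with the chips. In a fit to the P6 arrays alone both passed, with adjusted p-values of 0.00241 for Klk7 and 4.76e-04 for Spink5, where 41.9% of all genes were called.

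**Figure D1:**
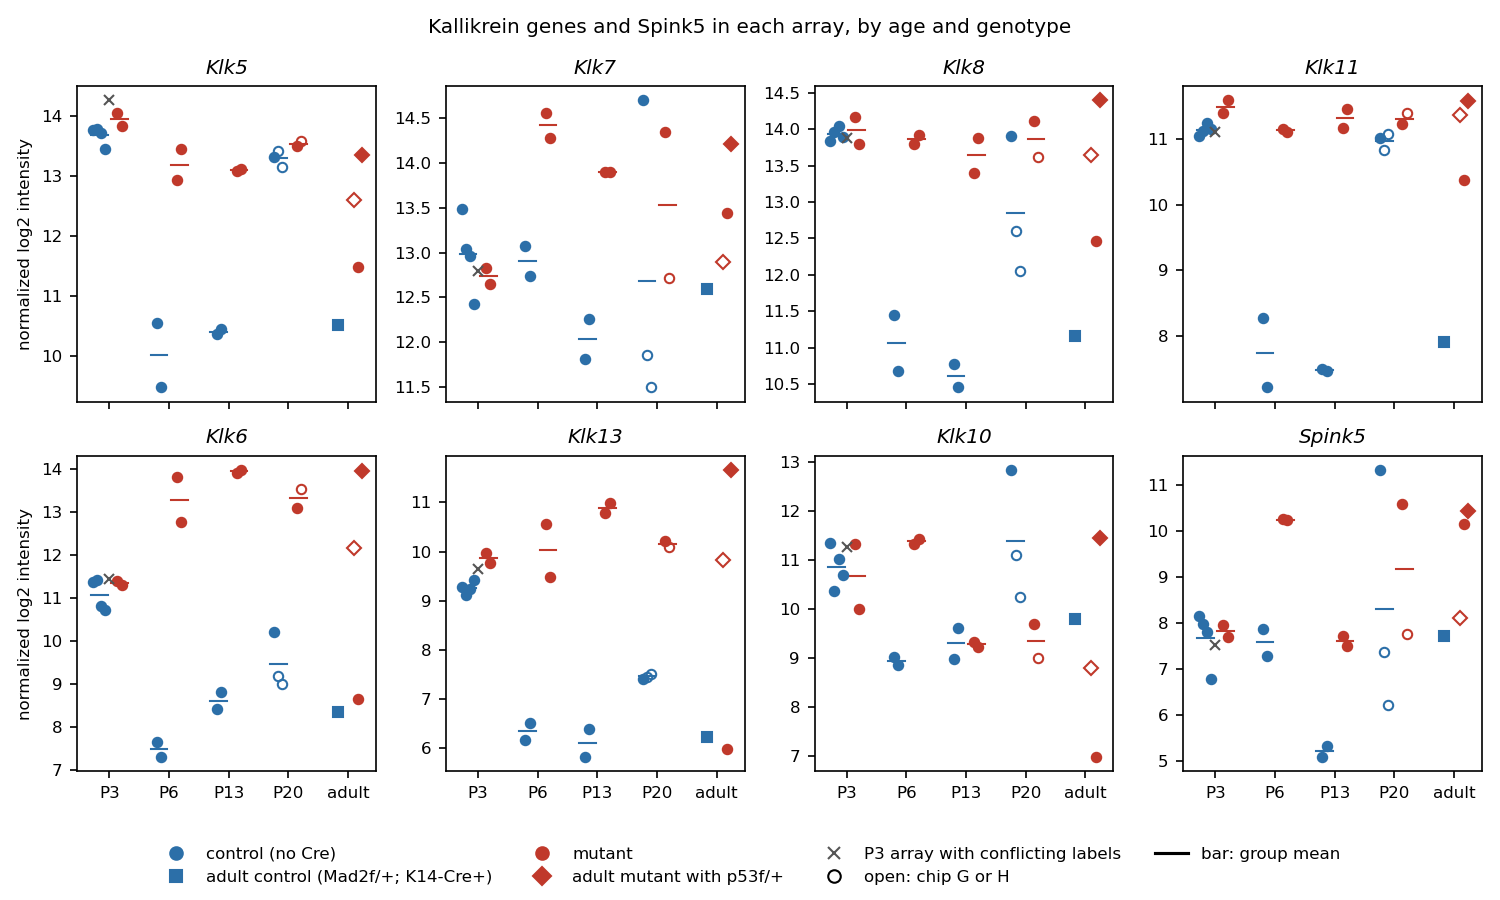
Normalized log2 intensity (y axis) of each tested member in each array, by age (x axis), with controls in blue, mutants in red and a bar at each group mean from P3 to P20. At P6 and P13 the controls of Klk5, Klk6, Klk8, Klk11 and Klk13 sit well below the mutants. At P3 the fitted differences of these genes are smaller, the largest being 0.60 in Klk13.

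At P13, 5 of the 8 members were higher in mutants and none lower, where 10% of all genes were called higher and 20.6% in either direction. Klk6 was at 13.92 and 13.98 in mutants against 8.42 and 8.82 in controls, 40.3-fold (5.33 ± 0.51; limma, adjusted p = 2.10e-06). Klk13 was at 10.79 and 10.98 against 5.82 and 6.40, 27.5-fold (4.78 ± 0.44; limma, adjusted p = 1.40e-06). Klk11 was at 11.17 and 11.45 against 7.50 and 7.47, 14.2-fold (3.83 ± 0.27; limma, adjusted p = 8.41e-08). Replicate arrays of these genes lay far closer to each other than the groups did.

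Klk5 at P13 stood at 13.08 and 13.12 in mutants and 10.37 and 10.44 in controls, a difference of 2.70 ± 0.32. Klk8 was at 13.40 and 13.88 against 10.77 and 10.46, a difference of 3.03 ± 0.45. Both passed, with adjusted p-values by limma of 2.01e-05 and 1.90e-04. Klk7 was at 13.90 in both mutants and at 11.81 and 12.26 in controls, a difference of 1.87 ± 0.78 with an adjusted p of 0.107 by limma. Klk10 overlapped between the genotypes, at 9.33 and 9.24 against 8.99 and 9.61.

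Spink5 at P13 was above background in both mutants, at 7.73 and 7.51, and in neither control, at 5.09 and 5.33. With the controls set to the lowest signal that counts as above background, the inhibitor gene was at least 4.74-fold higher in mutants, and the fit gave 2.41 ± 1.20 (limma, adjusted p = 0.182). With chip as a fixed block, which at P13 compares arrays of 1 chip, Spink5 and Klk7 passed at unchanged differences (limma, adjusted p = 9.97e-04 and 0.00115), in a fit that called 31.5% of all genes at this age.

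**Figure D2:**
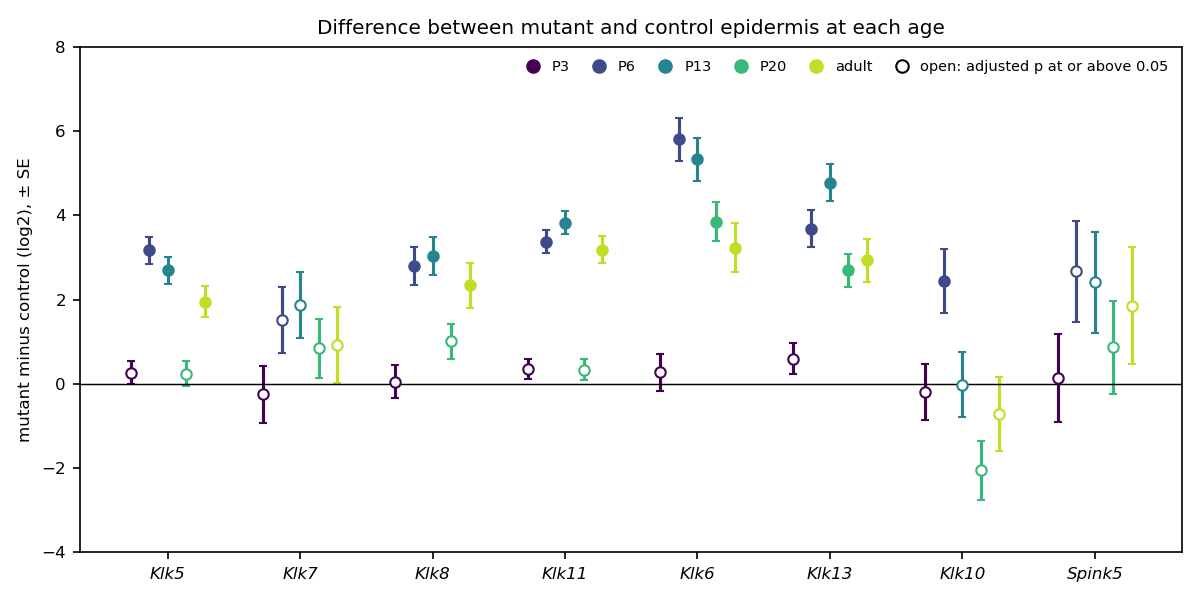
Difference between mutants and controls in log2 units with its standard error (y axis) for each member (x axis) at 5 ages, with filled points where the adjusted p was under 0.05. Klk6 and Klk13 stay above 0 with filled points from P6 to adults, and Klk10 moves from above 0 at P6 to below 0 at P20.

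At P20, Klk6 and Klk13 were higher in mutants and the other 6 did not pass, where 4.42% of all genes were called higher and 10.1% in either direction. Klk6 stood at 13.11 and 13.55 in mutants and at 10.22, 9.20 and 9.02 in controls, 14.5-fold (3.86 ± 0.47; limma, adjusted p = 6.96e-05). Klk13 stood at 10.22 and 10.09 against 7.42, 7.45 and 7.51, 6.48-fold (2.70 ± 0.40; limma, adjusted p = 4.69e-04). The Klk13 controls spanned less than 0.1 log2 units.

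Klk5 at P20 was at 13.49 and 13.58 in mutants and 13.31, 13.41 and 13.14 in controls, a difference of 0.25 with a 95% interval of -0.37 to 0.86. Klk11 was at 11.23 and 11.39 against 11.01, 10.83 and 11.07, a difference of 0.34 with an interval of -0.19 to 0.87. Both intervals lie wholly below the differences fitted for these genes at P6 and P13. Klk10 was lower in both mutants, at 9.69 and 9.02 against 12.84, 11.12 and 10.24, but its difference of -2.05 ± 0.70 did not pass (limma, adjusted p = 0.078). Klk10 was called lower with chip as a fixed block, at -2.30 (limma, adjusted p = 0.00583), and without P20 control sample 5, at -2.62 (limma, adjusted p = 0.0361). It was also called with chip as a random block and with the authors' values (limma, adjusted p 0.00647 and 0.0459). Without chips G and H, which leaves only mutant sample 1 and control sample 3 at P20, the Klk10 difference was -3.15.

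The P20 arrays lay on chips F and G, and for some members the chips stood further apart than the genotypes. On chip F, Klk7 was at 14.34 in the mutant and 14.70 in the control. On chip G it was at 12.71 in the mutant and 11.86 and 11.50 in the controls. Spink5 likewise gave 10.58 and 11.32 on chip F against 7.76, 7.37 and 6.21 on chip G, where the deposited intensities already had background subtracted. Thus the mutant was below the control on chip F and above both controls on chip G for these 2 genes. Klk6 and Klk13 were higher in the mutant on both chips, and on chip G, with 1 mutant and 2 control arrays, their differences were 4.45 and 2.60. Without P20 control sample 3, on chip F, 5 members were called higher at this age instead of 2, in a fit that called 22.7% of all genes, with Klk7 at 1.85, Klk8 at 1.54 and Spink5 at 2.38. In that fit the chip F mutant has no control on its own chip, so chip and genotype cannot be fully told apart.

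**Figure D3:**
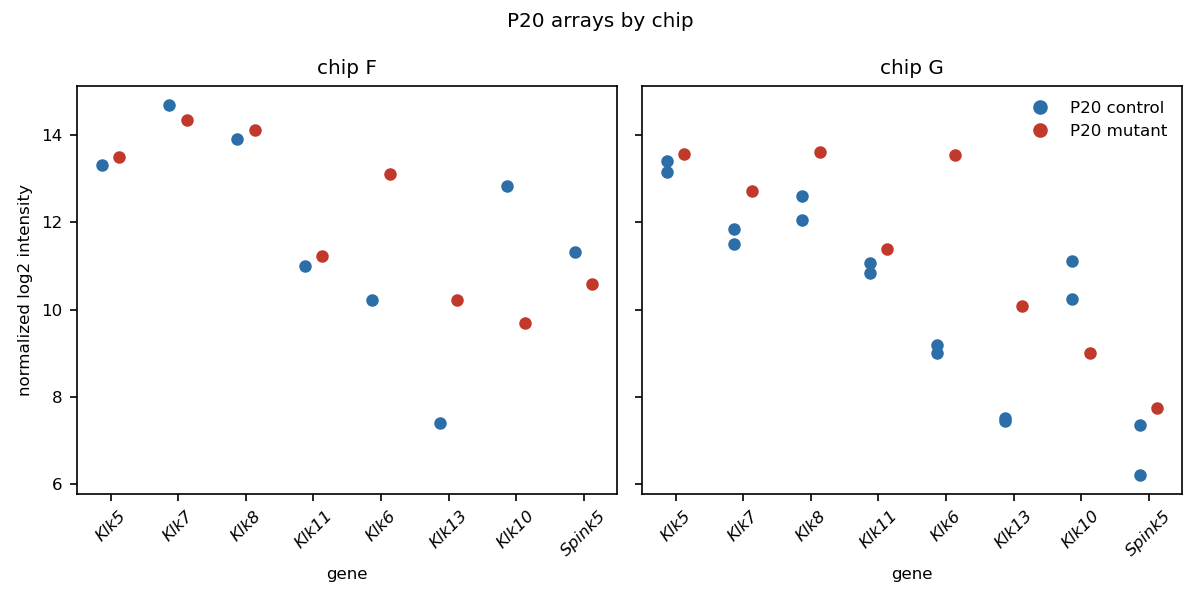
Normalized log2 intensity (y axis) of each member (x axis) in the P20 arrays of chip F (left) and chip G (right), controls in blue and mutants in red. Klk7 and Spink5 lie lower on chip G in both genotypes, Klk6 and Klk13 separate the genotypes on both chips, and levels are not comparable between genes.

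In adults the mean of the 3 mutant arrays was set against the single control, and 5 of 8 members were called higher, where 5.23% of all genes were called higher and 11.9% in either direction. Klk11 was at 11.36 and 11.58 in the mutants with a floxed p53 allele, 10.37 in the mutant without it and 7.92 in the control. The overall difference was 3.19 ± 0.32 (limma, adjusted p = 5.31e-06). Klk5 was at 12.60 and 13.34, 11.47 and 10.52 in the same order, and Klk8 at 13.65 and 14.40, 12.46 and 11.17. In these 3 genes the mutant without the p53 allele lay between the others and the control.

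Klk6 in adults was at 12.16 and 13.96 in the p53f/+ mutants but at 8.65 in the mutant without that allele, beside 8.35 in the control. Klk13 gave 9.84 and 11.66, then 5.98, beside 6.22. For both genes the mutant without the p53 allele stood near the control and the p53f/+ mutants near the younger mutants, in 1 and 2 arrays. The fit took the mean of all 3 mutants and called Klk6 (3.23 ± 0.59) and Klk13 (2.93 ± 0.51; limma, adjusted p = 0.00147 and 9.48e-04). Both differences rested on which mutants entered the mean. Klk6 was at 4.71 without adult sample 2 and 2.05 without adult sample 3, and Klk13 at 4.52 and 1.68. Klk10 ranged from 6.99 to 11.46 among adult mutants around the control's 9.80, and Spink5 gave 8.11, 10.43 and 10.15 against 7.71. With 1 control the spread of adult controls is unknown and is taken from the other groups. In a fit to the adult arrays alone 0 members passed with limma, where 0.816% of all genes were called.

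Chip was a batch that held both genotypes on chips A, C, E, F and G. With chip as a fixed block, 8 members were called at P6, 7 at P13, 3 at P20, 6 in adults and 0 at P3. The same fit called 24.6%, 31.5%, 16.7%, 15.4% and 2.95% of all genes in that order, against 22.8%, 20.6%, 10.1%, 11.9% and 1.93% without the block, so calls became more frequent over all genes as well. Within chip C at P6, where 2 mutants stood against 1 control array, the differences were 5.64 for Klk6, 3.86 for Klk13, 2.85 for Klk11, 2.64 for Klk5 and 2.42 for Klk8. Within chip F in adults, where mutant samples 2 and 3 stood against the 1 control, they were 2.95, 2.59, 3.06, 1.89 and 2.26 for the same genes. Within chip A alone at P3 none was called, and at P13 all arrays lay on chip E.

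Set out by genotype, the changes called between ages in the fit to all arrays were all in controls. From P3 to P6, 6 of the 8 members fell in controls, where 15.4% of all genes were called lower. The changes were -3.66 for Klk5, -3.60 for Klk6, -3.39 for Klk11, -2.92 for Klk13 and -2.87 for Klk8, with adjusted p-values from 5.98e-08 to 4.27e-05 by limma. Klk10 fell by 1.92, a call that was lost without any 1 of P3 controls 4, 6 and 7 or of the P6 controls (adjusted p from 0.0521 to 0.176), with chip as a random block (0.0723) and with no filter (0.0759). Klk7 changed by -0.08 ± 0.67 and Spink5 by -0.10 ± 1.04. Each of these ages lay on chips of its own, so age and chip cannot be told apart. With chip as a random block the calls over all control comparisons of ages numbered 15 instead of 19. The share of all genes called in that fit was not counted. At P13 the controls of 5 members, Klk5, Klk6, Klk8, Klk11 and Klk13, were still lower than at P3 (11.6% of all genes lower).

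Between P13 and P20, 5 members rose again in controls, where 11.2% of all genes were called higher. Klk11 rose by 3.49 ± 0.25, Klk5 by 2.88 ± 0.29 and Klk8 by 2.24 ± 0.41. Klk10 rose by 2.10 ± 0.70 and Klk13 by 1.35 ± 0.40, with adjusted p-values of 0.039 and 0.021 by limma. Neither call held under all alternatives. Klk10 lost its call without P13 control 3 or 4 or P20 control 3 or 4 (adjusted p 0.228, 0.106, 0.107 and 0.0604), and Klk13 without P13 control 3 or P20 control 5 (adjusted p 0.200 and 0.0503). With chip as a random block both were lost (0.133 for Klk10 and 0.193 for Klk13). Klk10 was also lost with no filter and with only the compared groups (0.085 and 0.147), and the latter fit lost Klk8 too (0.0602). Klk13 was lost with no background correction, an offset of 50, the authors' values (where the rise was 0.46) and another of its probes, ILMN_3115315 (adjusted p 0.140, 0.0566, 0.0833 and 0.274). Spink5 was not above background in the P13 controls. The mean of the P20 controls was at least 7.61-fold higher, but these lay at 11.32 on chip F and at 7.37 and 6.21 on chip G. The P20 control at 6.21 was not above background either. The fitted change of Spink5, 3.09 ± 1.10, did not pass (limma, adjusted p = 0.0503) but did with chip as a random block (0.0425). Without chips G and H it was 6.11, with P20 control 3 alone on the P20 side. Set against P3, the P20 controls of Klk5 and Klk11 were back within 0.4 log2 units, whereas Klk6 and Klk13 stayed lower (changes of -1.61 ± 0.39 and -1.80 ± 0.33), where 8.79% of all genes were called lower. The Klk6 call was lost without P20 control 5 (adjusted p 0.0515) and with chip as a random block (0.0568). Without chips G and H, which leaves P20 control 3 alone, the Klk6 change was -0.87. Klk8 was also called lower at P20 than at P3, at -1.08, a call lost without 6 of the 7 P3 and P20 control arrays (adjusted p 0.064 to 0.224) and kept, among these, only without P20 control 3. It was also lost with chip as a random block (0.164), with no filter (0.0705) and with only the compared groups (0.125). Without chips G and H, again with P20 control 3 alone, the Klk8 change was -0.028.

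In mutants 0 of the 8 members were called by limma in any of the steps P3 to P6, P6 to P13 and P13 to P20, where 3.07%, 17.4% and 12.4% of all genes were called, with 3, 2 and 0 members at an unadjusted p under 0.05. Klk11 gave group means of 11.5, 11.1, 11.3 and 11.3 from P3 to P20, and Klk8 13.98, 13.86, 13.64 and 13.87. The change nearest to the threshold was that of Klk6, 1.94 ± 0.51 from P3 to P6 (limma, adjusted p = 0.0504). Over that step Klk7 and Spink5 changed by 1.69 ± 0.78 and 2.42 ± 1.20 in mutants. From P6 to P13 Klk10 and Spink5 changed by -2.10 ± 0.77 and -2.63 ± 1.20. Some alternative fits did call changes in the mutant steps, as given at the end. Klk14 was not well above background in any group as a whole, with normalized values from 4.44 to 6.76. The mutant and control courses share their arrays with the comparisons of genotype.

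The difference between genotypes itself changed with age. The mean difference over P6, P13 and P20 exceeded that at P3 for 5 members, where 3.5% of all genes were called higher in this test. The sizes were 4.73 ± 0.53 for Klk6, 3.12 for Klk13, 2.23 for Klk8, 2.17 for Klk11 and 1.77 for Klk5 (limma, adjusted p from 1.31e-04 for Klk6 to 0.00900 for Klk8). The Klk8 call was lost without P3 mutant 2 (adjusted p 0.0844), and Klk7 was called, at 1.99, without P20 control 3 (adjusted p 0.0171) and, at 1.65 and 1.64, with chip as a fixed or random block (0.0116 and 0.0441). P20 control 3 was the only P20 control on chip F. Between P6 and P13 the differences of 0 members changed by limma, with 1 at an unadjusted p under 0.05 and 10% of all genes called.

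From P13 to P20 the difference shrank for Klk11 by -3.49 ± 0.37, for Klk5 by -2.45 ± 0.43 and for Klk13 by -2.08 ± 0.59, where 3.97% of all genes were called lower. For Klk8 the change was nearly as large as for Klk13, -2.01 ± 0.61, and did not pass (limma, adjusted p = 0.0564). It did pass with chip as a fixed or random block (0.00477 and 0.00430). From P6 to P20 the difference changed by -4.49 ± 1.04 for Klk10, -3.04 for Klk11 and -2.93 for Klk5, where 4.04% were called lower. For Klk11 and Klk5 the P20 mutants stayed level and the P20 controls had come up to them. The Klk13 change from P13 to P20 passed narrowly (adjusted p = 0.042), and was lost without any 1 of 8 of the 9 arrays of P13 and P20 (adjusted p 0.0627 to 0.161), kept among these only without P20 control 3. It was lost as well without background correction, with an offset of 50, with 75th percentile scaling, with no filter, with the mean of its probes, with probe ILMN_3115315 alone, with only the compared groups and with array weights (adjusted p 0.0506 to 0.228). The Klk10 change was lost without P6 control 4 (adjusted p 0.0552) and with only the compared groups (0.0506). The P20 comparisons use the same P20 arrays.

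The peeled tissue did not hold the same mix of cells in every array. The mean of 9 fibroblast markers, among them Dcn, Lum and Col3a1, was 5.40 to 5.46 in P6 mutants and 11.1 to 11.6 in P6 controls, and 9 of 9 were called lower in P6 mutants. It was 5.59 to 6.01 in P3 controls, 6.09 to 7.87 in P20 controls and 10.3 to 10.7 in P13 controls. So P6 and P13, where control means of Klk5, Klk10 and Klk11 were low, were the ages with high fibroblast signal. Klk6, Klk8 and Klk13 were low then too, but P20 controls were also below P3 controls, by -1.61, -1.08 and -1.80. Klk7 and Spink5 changed by -0.08 and -0.10 in controls from P3 to P6. From P3 to P13 they changed by -0.95 and -2.47 without passing, and Spink5 was above background in neither P13 control. In adults the fibroblast mean was 11.9 in the control and 10.99 in the mutant without the p53 allele, the arrays with low Klk6 and Klk13. It was 5.33 and 5.55 in the p53f/+ mutants. Adult sample 2 also had the highest mean of 3 muscle markers of all arrays, 12.97 against 5.41 to 8.71 in the others. Endothelial and blood markers followed the same split at P6, at 5.64 to 6.36 in mutants and 9.50 to 9.55 in controls, with 3 of 5 called lower.

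P13 was the age at which both genotypes had high fibroblast signal, with means of 9.90 and 10.2 in mutants and 10.3 and 10.7 in controls, and 1 of 9 markers called higher and 1 lower. The kallikrein differences at that age were as given, 5.33 for Klk6, 4.78 for Klk13 and 3.83 for Klk11. Over P6, P13 and P20 the mutant levels of Klk11 stayed between 11.1 and 11.5 while the fibroblast mean in mutants went from 5.43 to 10.1 to 5.87. In the same order, mutant group means were 10.25, 7.62 and 9.17 for Spink5 and 11.39, 9.29 and 9.35 for Klk10. From P6 to P13, 3 of the 8 members rose in mutants, and 0 of the 8 were called in this step. Other cell markers still differed at P13, with a hair shaft and inner root sheath mean of 6.23 in mutants and 14.6 in controls. The mean of suprabasal and granular keratinocyte markers was 14.9 in P13 mutants and 12.9 in controls. The part of cell mix in the differences at any age or between ages was not tested. In whole tissue fewer cells of a type and less RNA per cell cannot be told apart.

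**Figure D4:**
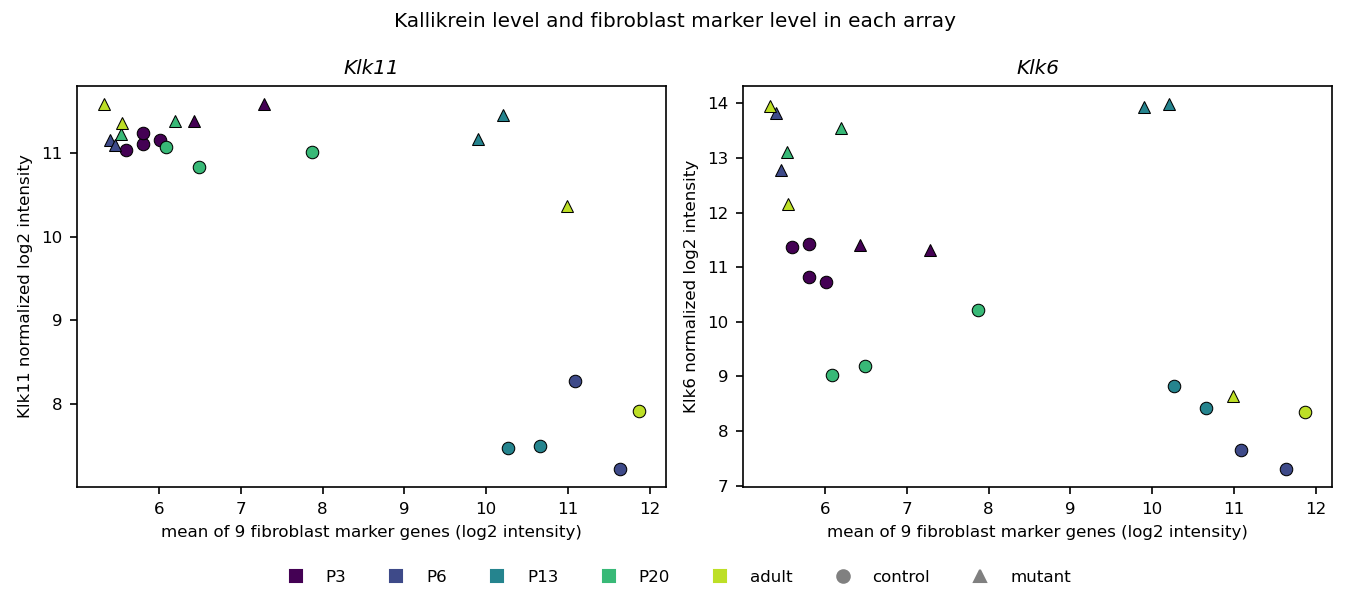
Normalized log2 intensity (y axes) of Klk11 (left) and Klk6 (right) against the mean log2 intensity of 9 fibroblast markers (x axes) in 23 arrays, colour by age, circles for controls and triangles for mutants. At P13 mutants and controls lie at similar fibroblast levels, about 10 to 10.7, and differ in both kallikreins.

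Hair keratin genes were lower in mutants. The mean of 7 hair shaft and inner root sheath genes was 5.95 to 6.50 in P13 mutants and 14.57 to 14.61 in P13 controls, with 7 of 7 called lower, and 7 of 7 were lower in adult mutants. At P3 it was 9.92 to 10.3 against 13.5 to 14.05, with 5 of 7 lower, although 0 members were called at that age. At P20 it was low in both genotypes, 4.67 to 5.80 against 5.25 to 7.90, and 1 of 7 was lower. Markers of suprabasal and granular keratinocytes, the cells in which kallikreins are made, were higher in mutants for 4 of 8 genes at P6, 6 of 8 at P13, 2 of 8 at P20 and 4 of 8 in adults. Krt1, a keratin of the spinous layer, was among them at each of these ages, with differences of 3.14, 4.14, 3.00 and 3.80. Of 4 keratins of activated keratinocytes, Krt16 was higher at all 5 ages, by 2.81 at P3 and between 5.55 and 5.80 later, in a list with 1, 3, 2, 2 and 1 genes called higher. Basal keratinocyte markers were called in 0 of 5 cases at every age. Langerhans and myeloid markers were higher in P6 mutants for 4 of 5 genes, with means of 9.23 to 9.26 against 7.11 to 7.68 in controls, and for 1 of 5 at P13, with none called at P3, P20 or in adults. The mean of 3 melanocyte markers was 9.75 to 9.91 in P6 mutants against 10.7 to 11.4 in controls and 9.16 to 9.31 against 10.8 to 10.9 at P13, with 1 of 3 called lower at each. At P20 it was 8.02 to 9.18 against 5.90 to 8.35, with 1 of 3 higher, and in adults 2 of 3 were lower. The part of these cell types in the kallikrein results was not tested.

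Among other kallikreins, 2 of 5 listed genes were measured. Klk9, which lies between Klk10 and Klk8, was higher in mutants at P6, P13, P20 and in adults, by 4.01, 4.98, 1.96 and 4.20, and Klk15 was called at no age. A probe named PRSS18, a synonym of Klk6 in the RefSeq table, was fitted as a separate feature and gave 5.78, 5.11, 3.76 and 3.52 at P6, P13, P20 and in adults, next to 5.81, 5.33, 3.86 and 3.23 for the Klk6 probe. The second probe of Klk5, of Klk11 and the 2 further probes of Klk13 correlated with those used at r = 0.978 to 0.995 over 23 arrays.

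The proteases that act before or beside the kallikreins changed in part. At P6, 6 of 11 measured genes were higher in mutants (list median 1.10, all genes -0.04), at P13 4 were higher and 2 lower (median 1.02), at P20 1 and in adults 3 were higher. Ctsl, the lysosomal protease cathepsin L, had the largest P6 difference at 3.51, followed by the plasminogen activator Plau (2.08), the cornification protease Casp14 (1.82) and the membrane protease Tmprss13 (1.81). At P13 Casp14 differed by 3.89 and Ctsl by 2.49, and St14, the gene of matriptase, which can activate kallikrein precursors, was lower at -0.98. Casp14 was also the gene called at P20, at 1.78.

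Of 9 measured inhibitors other than Spink5, at P6 6 were higher (median 1.80), at P13 5 were higher and 1 lower (median 1.59), at P20 3 were higher and in adults 5 were higher and 1 lower. Wfdc12 and Slpi, small secreted proteins of the whey acidic protein family, differed by 5.07 and 4.90 at P6, and by 5.70 and 3.45 at P20. Serpina12, vaspin, which inhibits KLK7, was higher by 2.74 at P6, 3.71 at P13 and 1.94 in adults, and was 0.40 at P20 without passing. Serpine2, an inhibitor of trypsin-like proteases, was the one gene of the list called at P3, at 3.09, and was lower in adult mutants at -3.62.

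Of 8 measured genes of the corneodesmosome and other kallikrein substrates, 5 were higher in mutants at P6 (median 1.33), 6 at P13, 4 at P20 and 6 in adults, and none was lower at these ages. Dsg1b, a desmoglein cut by kallikreins, was higher by 3.34, 2.53, 2.33 and 1.98 at P6, P13, P20 and in adults. Cdsn, the gene of corneodesmosin, was higher by 1.13 at P6, 1.56 at P13 and 1.37 in adults. The filaggrin gene Flg differed by 3.00 at P13 and 0.90 at P20 and did not pass at P6 (0.52).

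F2rl1, the gene of the receptor PAR2 that KLK5 can switch on, was called at no age, with differences from -0.87 to 0.96. Of the 5 measured genes of the receptor and its downstream cytokines, Il1a (3.66), Tslp (2.43) and Il1b (2.39) were higher at P6 and F2r, the gene of the thrombin receptor, was lower at -3.44. At P13 Il1b alone was higher, at 2.38. Of 8 regulators of late keratinocyte differentiation, Grhl3 (2.41), Rora (2.30) and Cebpa (1.91) were higher and Vdr (-1.37) lower at P6. Klf4, whose kind of letters were marked in the promoters, differed by 1.56 at P6 and 1.86 at P13 without passing, and Grhl1 was lower at P13 at -1.66.

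Across the 23 assigned arrays, which share ages and chips, the members differed in how alike their patterns were. Klk5 and Klk11 correlated at r = 0.95, Klk8 and Klk11 at 0.93, and Klk6 and Klk13 at 0.95, while Klk7 went with Spink5 at 0.86 and with Klk5 at only 0.30. Klk10 correlated with the other members at 0.27 to 0.56. The gene most like Klk5 was Alox12b (r = 0.974), a lipoxygenase of the skin barrier, and that most like Klk11 was Ly6g6c (0.970). For Klk8 it was Rdh9 (0.975), for Klk7 Tmem79 (0.965), for Klk13 Serpinb6c (0.950) and for Spink5 Sptssa (0.964). Apart from its own second probe, Klk6 was most like Dsg1b (0.959), and the nearest gene to Klk10, Gsdma2, reached 0.821.

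**Figure D5:**
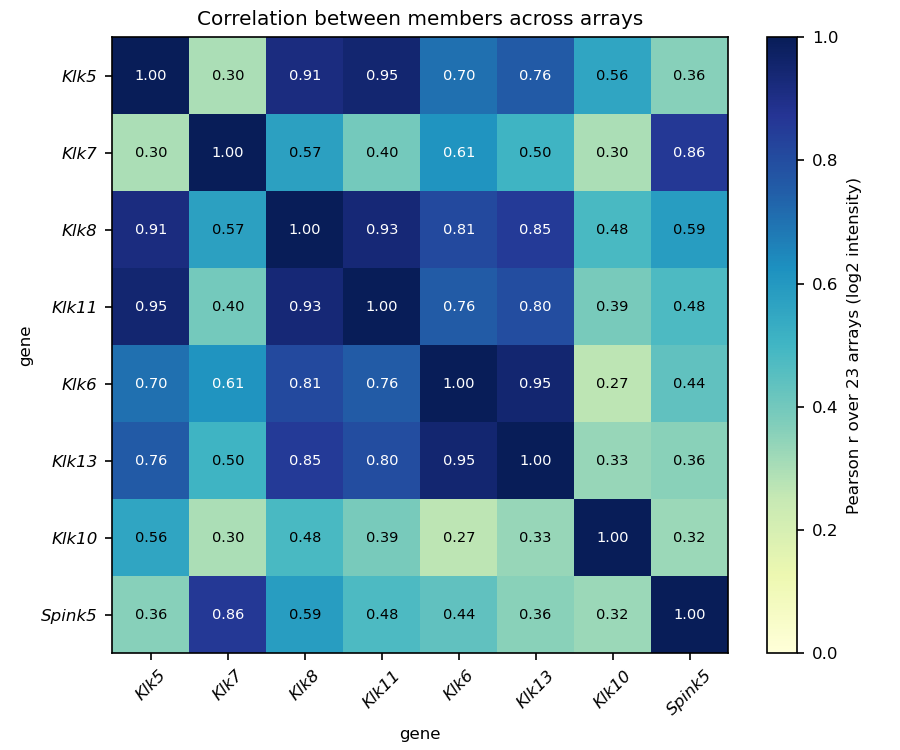
Pearson correlation between the tested members over 23 arrays, with genes on both axes and the value in each cell. Klk5, Klk8 and Klk11 form a block at 0.91 to 0.95, Klk6 and Klk13 pair at 0.95, Klk7 and Spink5 pair at 0.86, and Klk10 lies at 0.27 to 0.56 with the others.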

How the data were processed

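Total RNA of 24 samples of mouse epidermis was hybridized to Illumina BeadChip arrays, per the labels. The deposited scanner table holds 1 average bead intensity per probe and array for 45281 probes, not normalized between arrays. In the 4 arrays of chips G and H the deposited intensity held values below 0, so a background had been subtracted there. Per the file headers a detection column follows each intensity. The values showed that 10 of these deposited columns hold the detection p-value and 13 hold the fraction 1 minus that p-value. The column of adult sample 3 held bead numbers, so 1 per-sample column stayed unused. The deposited matrix held the authors' normalized log2 values (the submitters' processing notes name limma), with column medians of 7.47 for P3 to P20 and 9.54 to 9.68 for adults, where it held 1977 probes. Its ranks matched those of the scanner intensities within arrays. Its scale is log2 and its centring is unknown. It served as an alternative.

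Background correction used the normal-exponential model in limma 3.58.1 (R 4.3.3), its background taken from probes by their detection p. An offset of 16 was added before quantile normalization and log2. The background of the array without detection p-values was taken from its chip. A probe was tested if its detection p was under 0.01 on 2 or more arrays. Each gene took its probe with the highest mean, leaving 14217 genes. Members were matched by the probe's name, ignoring case. Group means were fitted in limma on all 24 arrays together, with 12 residual and 3.89 prior degrees of freedom and Benjamini-Hochberg adjustment over all genes in each contrast at 0.05. The fit was tested on simulated data. No depth applies to arrays, and the number of arrays limits the precision.

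The members and gene lists were chosen with earlier results of these data known. Named were all members, Mad2l1, up to 4 called genes of each list with the largest change per comparison, and for each member its most correlated genes. Named outside that rule, after their values were seen, were Krt1, Krt16, Dcn, Lum, Col3a1, Cdsn, Flg, Klf4, F2rl1 and Klk15. The alternatives were no background correction, an offset of 50, scaling by the 75th percentile, the authors' values, no filter or a filter at 12 arrays, averaging a gene's probes or taking each alone, chip as a fixed or random block (adults then averaged the mutant arrays that stayed in the comparison), single chips, leaving out chips G and H, fitting only the compared groups, array weights, trended and robust moderation, and leaving out each array. Chip G alone at P20 was added after seeing the data. Promoter windows were read from the RefSeq set of GRCm38.p6. Spink5 has no sequence shown here.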

Additional observations from a re-analysis of the deposited data

Results flagged for a closer look

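The difference between mutants and controls was not the same at every age, by limma on the difference itself. The mean difference of P6, P13 and P20 exceeded that of P3 by 1.77 for Klk5, 4.73 for Klk6, 2.23 for Klk8, 2.17 for Klk11 and 3.12 for Klk13. From P13 to P20 it changed by -2.45 for Klk5, -3.49 for Klk11 and -2.08 for Klk13. From P6 to P20 it changed by -2.93 for Klk5, -4.49 for Klk10 and -3.04 for Klk11. These comparisons share the P20 arrays, and the first shares all later arrays with the others.

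One P3 array had labels that conflict and was compared with no group. Its hair shaft and inner root sheath mean was 13.3, near the P3 controls (13.5 to 14.05) and above the mutants (9.92 to 10.3). Its Mad2l1 was 7.89, within the controls (7.09 to 7.99) and above the mutants (4.80 to 5.85). In that array Klk5 stood at 14.25, above the P3 controls (13.44 to 13.77) and the mutants (13.82 and 14.05). Klk6 stood at 11.46, above the highest value of either group (11.42 and 11.41). Klk13 stood at 9.65, between the controls (9.12 to 9.42) and the mutants (9.77 and 9.96).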

How the results depend on the processing

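No paired analysis was possible because the sample numbers are unique within an age and are shared by no mutant and control. The calls of Klk6 and Klk13 at P6, P13 and P20, of Klk5, Klk8 and Klk11 at P6 and P13 and the lack of any call at P3 held under every alternative run. In adults 5 members were called, and 0 when only the adult groups were fitted, which has fewer samples. At P20 2 members were called, and 2 to 5 when 1 array was left out, with 5 without P20 control 3. Over the comparisons of the difference between ages there were 11 calls, 20 with chip as a fixed block and 23 without chips G and H. Over the mutant age steps there were 0 calls, and 1 without background correction, with an offset of 50, with 75th percentile scaling, with detection in at least 12 arrays, with the mean of the probes and with trended and robust moderation. There were 4 with the authors' values, 5 with only the compared groups, 5 with array weights and 7 without chips G and H. The cause of these changes was not tested. Without chips G and H, P20 holds only mutant sample 1 and control sample 3. Without P20 control 3, the P20 mutant on chip F has no control on its own chip. The share of all genes called was not counted for these alternative fits of the age comparisons. These counts therefore cannot be read as particular to the members. The authors' values gave no adult comparison, and age steps could not be fitted with chip as a fixed block.

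Directions that turned belonged to values that had not passed, with 1 exception among the turned values. That exception was Klk7 in controls from P3 to P20, at 1.72 without chips G and H, where P20 control 3 alone stood for P20. With chip as a random block the same change was 0.025, against -0.30 in the main fit. Spink5 at P3 was -0.16 with chip as a fixed block and within chip A, and -0.026 with chip as a random block, against 0.15. Klk10 at P13 was 0.27 with 75th percentile scaling. At P20, without chips G and H, Klk7 was -0.36 and Spink5 -0.74. Klk10 was -0.044 without chips G and H for the later differences minus P3. With array weights Klk7 was 0.16 for the difference at P20 minus P6, -0.18 in controls from P13 to P20, and Spink5 was -0.51 in controls from P3 to P20. With chip as a random block Klk7 was 0.028 and Spink5 0.071 in controls from P3 to P6.

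With 1 array left out, the lowest and highest values of the comparisons that turned at P3 were -0.13 and 0.23 for Klk8, -0.86 and 0.47 for Klk10, and -0.16 and 0.30 for Spink5. They were -0.33 and 0.30 for Klk10 at P13, -0.55 and 2.38 for Spink5 at P20, and -1.90 and 0.33 for Klk10 in adults. For the later differences minus P3 Klk10 gave -0.34 and 0.99, and for P20 minus P6 Klk7 gave -1.49 and 0.33. In controls from P3 to P6 Klk7 gave -0.26 and 0.092 and Spink5 -0.40 and 0.19. From P13 to P20 Klk7 gave -0.35 and 1.25. From P3 to P20 Klk7 gave -1.30 and 0.30, Klk10 -0.18 and 1.11, and Spink5 -0.89 and 1.66. Dim members are limited by their signal over background, and groups of 2 arrays limit every comparison.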
